A study of Homo sapiens with 4 samples.

Results

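The genes described here are 10 genes of iron uptake, iron storage and heme handling, chosen by name with earlier results of these data known: STEAP4, STEAP3, SLC39A14, TFRC, FTH1, FTL, SLC40A1, HMOX1, ACO1 and IREB2. Of these, 9 have a row among the 27356 genes of the deposited tables, and SLC40A1, which encodes the iron exporter ferroportin, has none and was not analysed here. The tables hold 0 rows without a count in all 4 libraries, and whether a gene without a row had no reads was not tested. RNA sequencing of polyadenylated RNA was available from 4 libraries of HaCaT, an immortalised line of human keratinocytes. The 2 M5 libraries came from cells given a mix of oncostatin M, TNF-α and the interleukins IL-1α, IL-17 and IL-22 at 10 μg/L each for 72 h, and the 2 PBS libraries from cells given phosphate-buffered saline for the same time, both from a plating density of 50%. The treatment tag of the M5 libraries names 25 μM DAC, whereas their titles, the protocols and the series text name M5, which is the name used here. Nothing in the labels ties the replicates to separate cultures, and the p-values below therefore reflect only library-to-library spread, possibly of technical origin.

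Cells take up transferrin-bound iron through the transferrin receptor TFRC, reduce it with metalloreductases of the STEAP family, and store the surplus in ferritin, a shell of heavy (FTH1) and light (FTL) chains. A pair of cytosolic RNA-binding proteins, IRP1 (encoded by ACO1) and IRP2 (encoded by IREB2), adjust this system after transcription: when iron is scarce they bind hairpins called iron responsive elements, which blocks translation of ferritin mRNA and protects TFRC mRNA from decay. Heme is degraded to iron, biliverdin and carbon monoxide by heme oxygenase, of which HMOX1 is the inducible form, and its transcription is repressed by BACH1 and raised by NFE2L2 (NRF2).

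The hairpins are shown because they join the 2 RNA-binding members to members that they bind. They were read from GENCODE 29 transcripts on GRCh38 by searching untranslated regions, on the transcript strand, for a C, 5 further bases and CAGTGN, with 5 base pairs between the 5 bases before the loop and the 5 after it. The capitals mark the unpaired C and the CAGTGN loop, and each line holds 30 bases. The search covered protein-coding genes at large. Its outcome for FTH1, HMOX1, SLC39A14 and SLC40A1 was not read out singly, so nothing is said here of hairpins in them. The search also matched 1 place in the 3′ untranslated region of TF, which encodes transferrin and is not a member, and that site is not printed. Hairpins that depart from this pattern would be missed, so the sites shown need not be all. Sites are shown at chr19:48965334-48965363 (plus strand) in the 5′ untranslated region of FTL and at 4 places in the 3′ untranslated region of TFRC on the minus strand, chr3:196050979-196051008, chr3:196050575-196050604, chr3:196050510-196050539 and chr3:196050463-196050492.
FTL 5′ site: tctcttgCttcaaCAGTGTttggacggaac
TFRC 3′ site 1: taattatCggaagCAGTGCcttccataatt
TFRC 3′ site 2: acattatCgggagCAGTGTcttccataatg
TFRC 3′ site 3: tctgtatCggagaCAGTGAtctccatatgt
TFRC 3′ site 4: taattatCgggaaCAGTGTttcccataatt

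A match of this kind was rare. Among protein-coding genes, 36 of 18809 (0.191%) held one in a 5′ untranslated region and 132 of 19089 (0.691%) in a 3′ untranslated region. All 4 TFRC sites differ from each other in the stem, and the loop letters are those searched for. Counts of mRNA do not measure the translation that the FTL site controls.

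The libraries held 18992988 and 19749612 counts in M5 and 15858644 and 16051974 in PBS. All 10 keratinocyte markers checked were present, with summed FPKM (counts scaled to gene length and library total) of 5500 and 5233 in M5 and 3971 and 3914 in PBS. These markers did not move as one: KRT6A, KRT17 and SFN were among those higher in M5, while PKP1 and KRT5 were lower, with KRT5 at 363 and 336 FPKM in M5 and 760 and 753 FPKM in PBS. Summed markers of fibroblasts, melanocytes, leukocytes, endothelium and erythroid cells reached at most 5.16 FPKM in a library. The leukocyte sum was 4.71 and 5.16 in M5 and 2.37 and 1.59 in PBS and came almost wholly from CD14, with PTPRC, the pan-leukocyte marker, without a row. A gene was called changed where edgeR's quasi-likelihood test, with TMM scaling (which sets library size by the bulk of genes) and Benjamini-Hochberg adjustment over the 10809 genes whose FPKM averaged 1 or more, gave an adjusted p under 0.05. Fold changes are M5 over PBS, and CPM are counts scaled to library size after TMM, as mean ± SD over 2 libraries. In RNA from whole cultures, fewer cells expressing a gene and less RNA per cell cannot be told apart.

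In M5, HMOX1 and ACO1 rose and TFRC fell, while the ferritin chains, STEAP3, SLC39A14 and IREB2 did not pass the test. STEAP4 was too low for the filter, with a mean FPKM of 0.914, and rose in the fit without a filter. Of the 8 members tested, 3 were called, 2 higher and 1 lower, where 55.9% of all genes tested were called, 28.8% higher and 27.1% lower. HMOX1, 1 of the 2 called higher, passed the filter only through its M5 libraries. Without a filter, 3 of 9 members were higher and 1 lower, against 12.4% and 9.99% of all genes. These shares are not of like genes: most of the 27356 genes averaged under 1 FPKM, whereas 8 of the 9 members passed the filter. The median log2 fold change was 0.05 over the 8 members and -0.01 over all genes tested. The members were thus not called more often than genes at large with the filter, and the description below is of single genes.

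**Figure D1:**
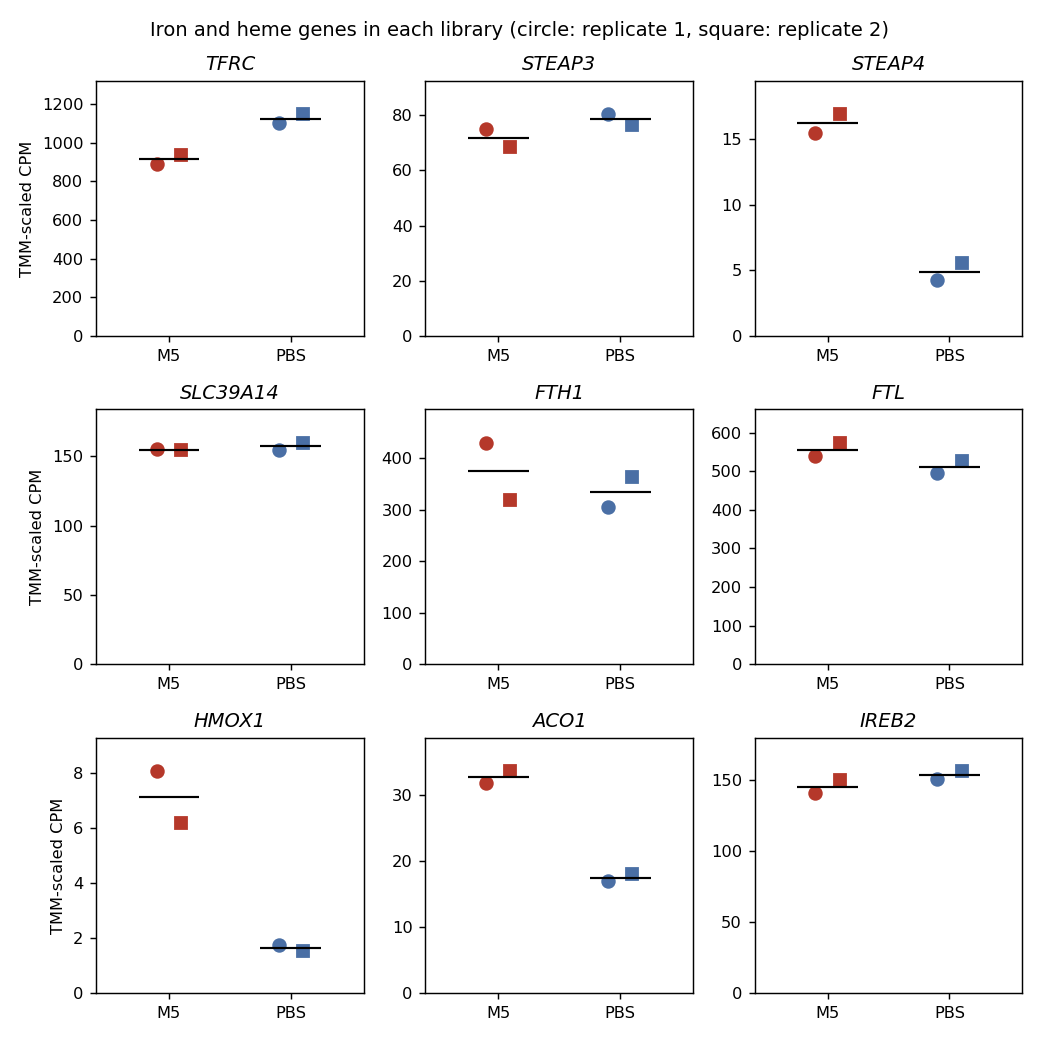
Level of each of the 9 members with a row, in TMM-scaled CPM on axes that start at 0, with a circle for replicate 1, a square for replicate 2 and a line at the group mean. STEAP4, HMOX1 and ACO1 lie higher in both M5 libraries, and TFRC lies lower. FTL also lies higher and STEAP3 and IREB2 lower, by narrow margins, and the libraries of FTH1 and SLC39A14 overlap between the groups. The share of all genes whose groups do not overlap was not computed.

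Transferrin-bound iron enters through TFRC (ENSG00000072274, chromosome 3, 196027183 to 196082189, minus strand), which binds iron-loaded transferrin at the cell surface. TFRC had 16052 and 17601 counts in M5, or 893 and 936 CPM, against 18439 and 19411 counts in PBS, or 1103 and 1148 CPM. Both M5 libraries lay below both PBS libraries, by a margin wider than the gap within either group. The means were 915 ± 30.6 CPM in M5 and 1125 ± 32.1 CPM in PBS (SD, n = 2 each), and TFRC fell by 0.30 on the log2 scale, 1.23-fold lower (SE 0.05, 95% interval -0.41 to -0.19, edgeR adjusted p = 7.34e-05). The change was small but kept its direction and call under every alternative tried, with log2 values from -0.48 with TPM scaling to -0.26 without M5 replicate 1. The 4 hairpin sites printed above lie in this mRNA.

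STEAP3 (ENSG00000115107, chromosome 2, 119223831 to 119265652) encodes the endosomal ferrireductase that reduces iron released from transferrin in erythroid cells. It had 75.1 and 68.5 CPM in M5 and 80.4 and 76.6 CPM in PBS. The M5 values lay below those of PBS, by less than the gap between the M5 libraries. The log2 fold change was -0.13 (SE 0.07, 95% interval -0.27 to 0.01, edgeR adjusted p = 0.111). It passed the test without M5 replicate 1, at -0.19 (edgeR adjusted p = 0.0181).

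STEAP4 (ENSG00000127954, chromosome 7, 88270892 to 88306891, minus strand), a plasma membrane and endosomal metalloreductase of the same family that is known in other tissues as a gene induced by inflammatory cytokines, started from a low level. It had 279 and 318 counts in M5, or 15.5 and 16.9 CPM, against 71 and 94 counts in PBS, or 4.25 and 5.56 CPM. The groups were well apart, and both M5 libraries held more than the highest PBS library. The means were 16.2 ± 0.987 CPM in M5 and 4.90 ± 0.929 CPM in PBS (SD, n = 2 each), 3.37-fold higher in M5 in the fit without a filter (log2 value 1.75, SE 0.18, edgeR adjusted p = 2.28e-05). That call was lost without M5 replicate 1 (log2 value 1.82, edgeR adjusted p = 0.0594) and without M5 replicate 2 (log2 value 1.69, edgeR adjusted p = 0.0646), with fold changes close to the full one. Even after the rise, STEAP4 stood at 1.31 and 1.43 FPKM in M5, below STEAP3 at 15.6 and 14.3 FPKM.

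The 250 bases before the start of STEAP4 are shown because this member rose from a low level. Its window held matches to binding motifs of factors that act downstream of the cytokines given, and a link to the rise was not tested. The sequence is RefSeq's on GRCh38.p14, chr7:88306895-88307144, minus strand, and the capitals mark a STAT motif (TTCNNNGAA, 96 to 88 bases before the start) and a C/EBP motif (TTGCGNAA, 66 to 59 bases before it).
STEAP4 promoter: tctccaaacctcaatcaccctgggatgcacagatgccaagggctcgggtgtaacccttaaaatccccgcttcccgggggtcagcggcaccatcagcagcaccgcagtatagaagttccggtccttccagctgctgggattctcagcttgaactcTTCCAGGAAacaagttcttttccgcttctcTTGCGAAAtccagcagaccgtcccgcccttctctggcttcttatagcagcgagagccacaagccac

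Over the windows of 27305 genes, searched on both strands, 6.78% held the STAT motif, 1.01% its symmetric form TTCCNGGAA, which the STEAP4 match has, and 0.740% the C/EBP motif. The same windows were searched for AP-1 (TGANTCA, in 6.60%), the antioxidant response element (TGACNNNGC, in 11.04%) and NF-kB (in 5.05%). The motifs were chosen with this sequence in view, so the shares and the search of other genes cannot show that the matches are particular to STEAP4. Of the 7 members with an entry in the promoter table, only STEAP4 held any of these motifs, and FTH1, HMOX1 and SLC39A14 have no entry. Of 5 list genes also searched, ABCG2, which fell as described below, held the STAT motif (62 to 54 bases before its start), LCN2 held AP-1 and NF-kB, BACH1 held AP-1, BMP6 held NF-kB, and SLC39A8 held none. A match describes letters in a window, and binding was not measured.

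SLC39A14 (ENSG00000104635, chromosome 8, 22367249 to 22434129) encodes ZIP14, a zinc and iron importer that takes up iron not bound to transferrin. It had 155.1 and 154.7 CPM in M5 and 154.8 and 159.9 CPM in PBS. The groups overlapped, and the log2 fold change was -0.02 (SE 0.06, 95% interval -0.14 to 0.10, edgeR adjusted p = 0.760). Its close relative SLC39A8, described below with the other uptake genes, was 5.98-fold higher in M5.

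The ferritin chains were the most abundant members per length. FTL (ENSG00000087086, chromosome 19, 48965301 to 48966878) had 585 and 627 FPKM in M5 and 600 and 636 FPKM in PBS, at the 99.7th percentile of all genes tested. FTH1 (ENSG00000167996, chromosome 11, 61959718 to 61967660, minus strand), whose chain holds the ferroxidase centre, had 203 and 151 FPKM in M5 and 161 and 191 FPKM in PBS, at the 98.7th percentile. Both genes overlapped between the groups on this scale. Together they took 0.0916% and 0.0849% of all counts in M5 and 0.0845% and 0.0937% in PBS.

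**Figure D2:**
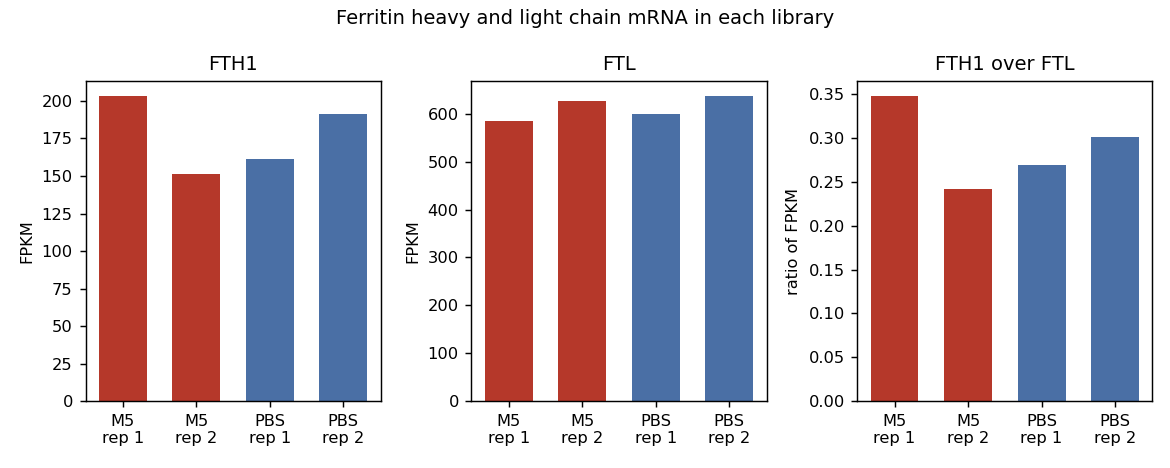
FPKM of FTH1 and FTL and their ratio in each of the 4 libraries, as bars from 0, with M5 libraries left of PBS libraries. The highest and the lowest FTH1 level and ratio are both in M5, at ratios of 0.347 and 0.241.

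In TMM-scaled CPM, FTL had 538 and 574 in M5 and 495 and 526 in PBS, a log2 fold change of 0.12 (SE 0.06, 95% interval 0.01 to 0.24, edgeR adjusted p = 0.0690) that turned to -0.03 with library totals and -0.06 with TPM scaling. FTL passed the test without M5 replicate 1, at 0.17 (edgeR adjusted p = 0.00135). The M5 libraries lay just above those of PBS, by less than the gap within either group.

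FTH1 rested on single libraries. It had 7726 and 5987 counts in M5, or 430 and 319 CPM, against 5117 and 6141 counts in PBS, or 306 and 363 CPM. The groups overlapped, with M5 replicate 2 below PBS replicate 2, and the log2 fold change was 0.16 (SE 0.10, 95% interval -0.05 to 0.37, edgeR adjusted p = 0.175). It was 0.36 without M5 replicate 2 (edgeR adjusted p = 2.13e-06), 0.29 without PBS replicate 2 (edgeR adjusted p = 0.00567), -0.07 without M5 replicate 1 and -0.02 with TPM scaling. The 2 M5 libraries differed 1.35-fold in FTH1, a larger gap than in 99.7% of the 752 genes averaging 50 FPKM or more, and the PBS libraries differed 1.19-fold, a larger gap than in 97.9% of them. The gap of FTL was 1.07-fold in M5 and 1.06-fold in PBS.

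The ratio of FTH1 to FTL in FPKM was 0.347 and 0.241 in M5 and 0.269 and 0.300 in PBS, with the PBS values inside the M5 range. With 2 libraries a group the ratio was not tested. Its size depends on the gene length used: the deposited FPKM divide FTH1 by 2004 bases, against 1229 in its longest coding transcript, and with the latter the mean ratio was 0.484 in M5 and 0.467 in PBS.

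Ferritin has many processed pseudogenes, whose reads can be shared with the parent gene, and the sources used here do not give how reads with several alignments were treated. The tables hold 12 rows named FTH1P and 5 named FTLP. The FTH1P rows summed to 59 and 68 counts in M5 and 73 and 60 in PBS, between 0.764% and 1.43% of the FTH1 count, and FTLP rows to at most 19 counts. The fullest were FTH1P8, with 32 and 31 counts in M5 and 33 and 32 in PBS, and FTH1P7, with 17 and 22 in M5 and 25 and 13 in PBS. The FTH1 and FTL values are uncertain to the extent that reads were lost or assigned to copies without a row, which was not tested.

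HMOX1 (ENSG00000100292, chromosome 22, 35380361 to 35394214) had 145 and 116 counts in M5, or 8.07 and 6.17 CPM, against 29 and 26 counts in PBS, or 1.73 and 1.54 CPM. The lower M5 library was far above both PBS libraries. The means were 7.12 ± 1.34 CPM in M5 and 1.64 ± 0.139 CPM in PBS (SD, n = 2 each), 4.33-fold higher in M5 (log2 value 2.12, 95% interval 1.58 to 2.65, edgeR adjusted p = 1.07e-06). Without single libraries the log2 value was between 1.92 and 2.30. It remained the lowest tested member, at 3.31 and 2.55 FPKM in M5 and 0.793 and 0.702 FPKM in PBS. HMOX1 passed the filter of 1 FPKM only through its M5 libraries. The rise thus concerns a transcript near the bottom of the tested range, at the 13.8th percentile by mean FPKM.

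The 2 iron regulatory protein genes did not share a pattern. ACO1 (ENSG00000122729, chromosome 9, 32384603 to 32454769), whose protein is a cytosolic aconitase while it carries an iron-sulfur cluster and an RNA-binding protein without it, had 571 and 630 counts in M5, or 31.8 and 33.5 CPM, against 283 and 303 counts in PBS, or 16.9 and 17.9 CPM. The libraries of each group lay close together and the groups far apart. ACO1 averaged 32.6 ± 1.24 CPM in M5 and 17.4 ± 0.706 CPM in PBS (SD, n = 2 each), 1.87-fold higher in M5 (log2 value 0.91, 95% interval 0.69 to 1.12, edgeR adjusted p = 4.52e-07), and between 0.86 and 0.95 on the log2 scale without single libraries.

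IREB2 (ENSG00000136381, chromosome 15, 78437431 to 78501456), whose protein is removed by the ubiquitin ligase adaptor FBXL5 when iron is plentiful, had 141 and 150 CPM in M5 and 151 and 156 CPM in PBS. Its M5 and PBS libraries came close to each other without crossing, and the log2 fold change was -0.08 (SE 0.06, 95% interval -0.20 to 0.04, edgeR adjusted p = 0.265). IREB2 was called lower without M5 replicate 2, at -0.13 (edgeR adjusted p = 0.0494). The intervals of ACO1 and IREB2 do not overlap, although the difference between the 2 genes was not itself tested. In FPKM, IREB2 was the higher of the pair in every library, at 12.3 and 13.2 against 3.98 and 4.22 for ACO1 in M5, and at 14.7 and 15.2 against 2.36 and 2.50 for ACO1 in PBS.

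**Figure D3:**
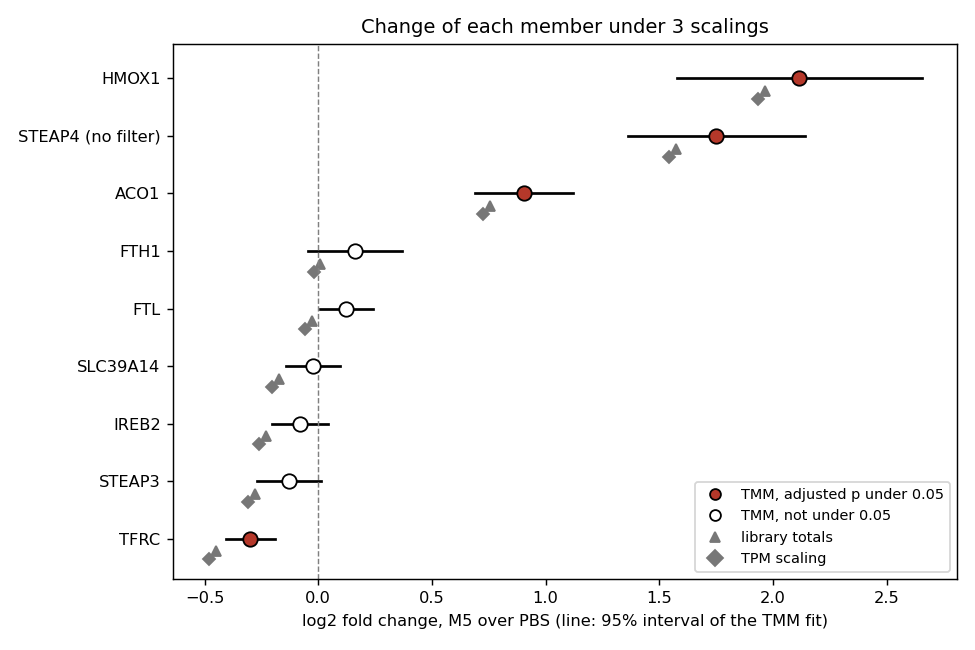
Log2 fold change, M5 over PBS, of each member, with a line for the 95% interval of the TMM fit, a filled circle where the adjusted p was under 0.05, and grey marks for library totals and TPM scaling. HMOX1, STEAP4, ACO1 and TFRC keep their direction under all 3 scalings, and FTL turns from 0.12 to -0.03 and -0.06.

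The calls of STEAP3, SLC39A14 and IREB2 depended on the scaling, while FTH1 and FTL were called under none of the 3 scalings. The median of all genes tested was -0.01 with TMM, -0.16 with library totals and -0.19 with TPM scaling. With library totals 2 of 8 members were called higher and 4 lower, where 61.7% of all genes tested were called, 20.4% higher and 41.3% lower. The added lower calls were STEAP3 at -0.28, SLC39A14 at -0.17 and IREB2 at -0.23. With TPM scaling the counts were again 2 and 4, where 62.6% of all genes were called, 18.8% higher and 43.8% lower, and these genes stood at -0.31, -0.20 and -0.26.

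Ordered by deposited FPKM, the members ran FTL, FTH1, TFRC, SLC39A14, STEAP3, IREB2, ACO1, HMOX1 and STEAP4 in both groups, and no neighbours in this order overlapped between libraries of one group. The order depends on gene length. TFRC was divided by 17377 bases, against 5111 in its longest coding transcript, and had 48.6 and 51.3 FPKM in M5 and 66.9 and 69.6 FPKM in PBS as deposited. Per length of that transcript it had 165 and 174 in M5 and 228 and 237 in PBS, still below FTH1, while IREB2 passed STEAP3 in every library, with 21.0 and 22.4 against 16.7 and 15.3 in M5. On that length HMOX1 and ACO1 overlapped in M5, at 4.19 and 3.22 for HMOX1 and 4.03 and 4.27 for ACO1.

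FTH1, TFRC, IREB2, SLC39A14, STEAP3 and STEAP4 each overlap a gene on the opposite strand that has a row, and the library kit does not mark strand. The partner counts were small beside the members: BEST1, which overlaps FTH1, had 26 and 34 counts in M5 and 94 and 54 in PBS, and the others at most 12 counts in a library. How reads lying in both genes were counted is not given in the sources used here. Small partner counts thus do not show how many reads the overlap took from the members, which was not tested.

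The rest of the pathway was followed with 84 other genes in 8 lists, of which 79 have a row and 62 were tested. Of these, 17 were called higher in M5 and 17 lower, against the 28.8% and 27.1% of all genes given above. The split was 11 higher and 28 lower with library totals, where all genes gave 20.4% and 41.3%, and 10 and 32 by TPM scaling, where they gave 18.8% and 43.8%. The counts of each list below are to be read against these 3 pairs of shares, and no list was tested against the other genes. Their median log2 fold change was -0.06, against -0.01 for all genes tested.

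**Figure D4:**
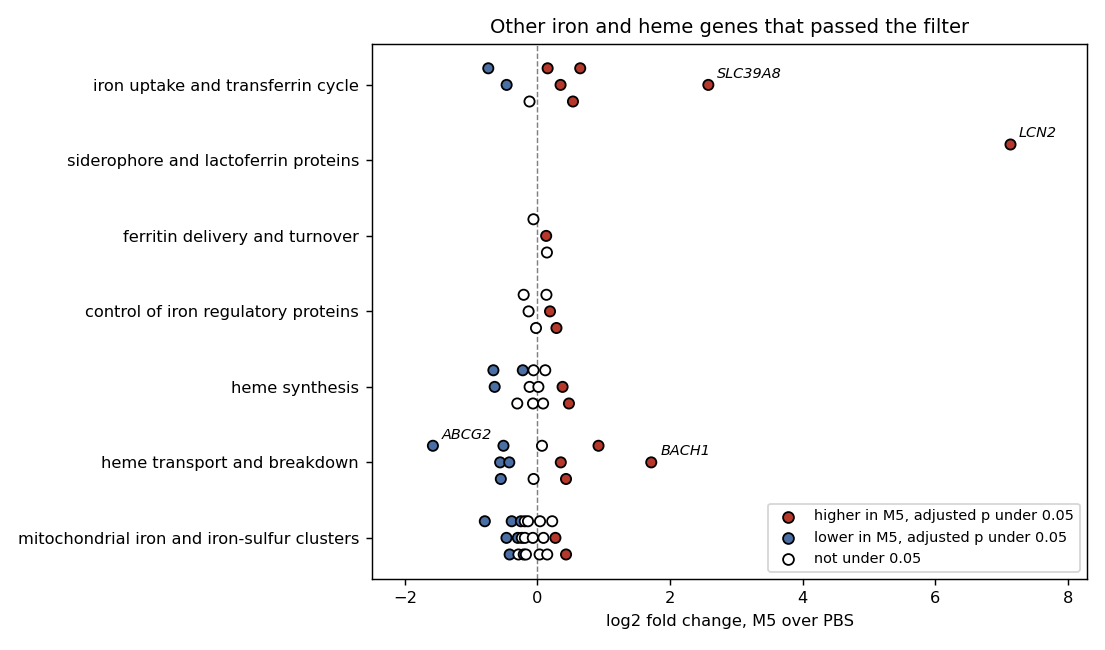
Log2 fold change, M5 over PBS, of the other iron and heme genes that passed the filter, 1 circle a gene and 1 row a list, red or blue where the adjusted p was under 0.05. LCN2 at 7.13, SLC39A8 at 2.58, BACH1 at 1.72 and ABCG2 at -1.58 lie beyond 1 log2 unit.

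Of 8 tested uptake and transferrin cycle genes, 5 rose and 2 fell with TMM (28.8% and 27.1% of all genes), 4 and 2 with library totals (20.4% and 41.3%) and 4 and 3 with TPM scaling (18.8% and 43.8%). SLC39A8, which encodes the zinc, manganese and iron importer ZIP8, had 29.1 and 33.2 CPM in M5 and 5.14 and 5.27 CPM in PBS (log2 value 2.58, SE 0.14, edgeR adjusted p = 9.11e-12). With 0.639 and 0.654 FPKM in PBS, SLC39A8 passed the filter only through its M5 libraries. STEAP1, the family member without a reductase domain of its own, had 21.0 and 19.7 CPM in M5 and 11.4 and 14.6 CPM in PBS, 1.57-fold higher. LRP1, an endocytic receptor that also takes up heme bound to hemopexin, fell to 193 and 167 CPM in M5, against 313 and 290 CPM in PBS. Transferrin itself (TF) had at most 4 counts in a library.

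The largest change in any list was that of LCN2, lipocalin 2, a secreted protein that binds iron-carrying siderophores of bacteria. LCN2 had 758 and 884 CPM in M5 and 6.40 and 5.32 CPM in PBS, 140-fold higher (log2 value 7.13, SE 0.10, edgeR adjusted p = 2.13e-20). The other genes of its list did not pass the filter, and lactoferrin (LTF) had at most 1 count in a library.

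Of 12 heme synthesis genes 2 rose and 3 fell, against 28.8% and 27.1% of all genes. By TPM scaling the split was 1 and 6, against 18.8% and 43.8% of all genes, so the lower calls were near the general share. ALAS1, the rate-limiting first enzyme outside erythroid cells, had 78.5 and 84.3 CPM in M5 and 58.0 and 59.1 CPM in PBS (log2 value 0.48, edgeR adjusted p = 6.07e-06). ALAD, the enzyme that follows it, fell 1.56-fold, with 37.8 and 31.0 CPM in M5 and 55.0 and 52.6 CPM in PBS (edgeR adjusted p = 9.54e-06).

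Of 11 tested heme transport and breakdown genes 4 rose and 5 fell, against 28.8% and 27.1% of all genes, or 3 and 6 with TPM scaling, against 18.8% and 43.8%. BACH1, the heme-binding repressor of HMOX1, FTH1 and FTL, rose alongside HMOX1, with 90.8 and 97.6 CPM in M5 and 28.6 and 28.7 CPM in PBS, 3.29-fold higher (log2 value 1.72, SE 0.07, edgeR adjusted p = 2.98e-13). NFE2L2, the activator, was named after its values were seen: it also rose, with 169 and 187 CPM in M5 and 128 and 136 CPM in PBS (log2 value 0.43, edgeR adjusted p = 1.03e-05). ABCG2, an exporter that carries porphyrins, fell to 13.7 and 17.5 CPM in M5, against 47.7 and 45.7 CPM in PBS, 2.98-fold lower (edgeR adjusted p = 4.88e-10). HMOX2, the constitutive heme oxygenase, had 4.28 and 6.86 CPM in M5 and 2.75 and 3.14 CPM in PBS (edgeR adjusted p = 0.00562). With 0.859 and 0.978 FPKM in PBS, it passed the filter only through its M5 libraries. Its call was lost without M5 replicate 2 (log2 value 0.54). It was also lost with limma on log2(FPKM + 1) and on log2(FPKM + 0.1) (limma adjusted p = 0.075 in each).

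Among mitochondrial iron and iron-sulfur cluster genes, 2 of 21 tested rose and 7 fell, at a median of -0.19, against 28.8% and 27.1% of all genes. The split by TPM scaling was 1 and 13, against 18.8% and 43.8% of all genes, at a median of -0.37, where the median of all genes was -0.19. NUBPL, an assembly factor for the clusters of respiratory complex I, fell to 16.8 and 18.3 CPM in M5, against 29.8 and 31.1 CPM in PBS. NFS1, the cysteine desulfurase that supplies sulfur, fell 1.38-fold, and SLC25A28 (mitoferrin 2), an iron carrier of the inner membrane, rose 1.35-fold.

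The remaining lists held few calls. Of 6 tested genes that control the iron regulatory proteins 0 rose and 3 fell with library totals (20.4% and 41.3% of all genes). TPM scaling gave the same counts (18.8% and 43.8%). With TMM 2 rose and 0 fell (28.8% and 27.1%), and the 2 were FBXL5, by 0.29, and CIAO2B, by 0.19 on the log2 scale. Neither was called with library totals, TPM scaling or limma, or without either PBS library (edgeR adjusted p = 0.0828 and 0.0585 for FBXL5, 0.147 and 0.0687 for CIAO2B), and CIAO2B was not called without M5 replicate 1 (edgeR adjusted p = 0.0912) or with DESeq2 (adjusted p = 0.0633). In the ferritin delivery list 1 of 3 tested genes was called with TMM, as higher. With library totals and with TPM scaling 0 were called higher and 1 other gene lower. The gene called with TMM was NCOA4, which delivers ferritin to the lysosome, at 0.13 (edgeR adjusted p = 0.0452). NCOA4 turned to -0.02 with library totals and -0.05 with TPM scaling. Its call was also lost with the replicate block (edgeR adjusted p = 0.0508), without M5 replicate 2 (edgeR adjusted p = 0.0538), without PBS replicate 1 or 2 (edgeR adjusted p = 0.202 and 0.296) and at the filter of 5 FPKM (edgeR adjusted p = 0.108). No gene of the export list passed the filter. Of that list BMP6, a ligand that induces hepcidin in hepatocytes, was chosen after its values were seen: it had 112 and 105 counts in M5 and 16 and 8 in PBS, a log2 value of 3.06 without a filter (edgeR adjusted p = 3.35e-05), and it lost its call without M5 replicate 1 (edgeR adjusted p = 0.0774) or M5 replicate 2 (edgeR adjusted p = 0.0692).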

How the data were processed

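Polyadenylated RNA of 4 HaCaT libraries was sequenced, 2 given M5 and 2 given PBS. Per the file headers, each deposited file lists Ensembl genes with their count of reads and their FPKM. GRCh38, HTSeq 0.13.5 and HISAT2 are listed, without roles or order, per the submitters' processing notes, and for the annotation, the strand setting and the treatment of multiply aligned reads they say nothing: not given in the sources used here. FPKM as deposited follow from the deposited counts, each file's total and whole-number gene lengths, to within 3.1e-08 bases. These lengths can exceed those of single transcripts, which lowers FPKM but leaves fold changes of a gene untouched.

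Counts were tested with edgeR 4.0.16 in R 4.3.3 (glmQLFit and glmQLFTest, TMM, two-sided) on genes whose FPKM averaged 1 or more, and p-values were adjusted by Benjamini-Hochberg over all genes tested. Members below the filter were taken from the fit without one. Each standard error was taken as the size of the log2 fold change over the root of its F statistic. Within groups, the median chi-square per gene was 1.44 in M5 and 0.976 in PBS, where sampling alone gives 0.455, so no library was treated as a copy. The fitting step was tested on simulated data. A gene with 3 counts would stand at 0.152 to 0.189 CPM before TMM, depending on the library.

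The members and lists were chosen with earlier results of these data known. The genes named besides the members are up to 3 called genes of each list with the largest change and the 2 ferritin copies with the most counts, with exceptions stated, and 1 gene that this rule names is not reported here. Alternatives were library totals, TPM scaling, DESeq2 1.42.0, no filter, a filter at 5 FPKM, limma 3.58.1 on log2(FPKM + 1) and log2(FPKM + 0.1), a replicate block, each library left out and an adjusted p of 0.01. The transcript length for the ferritin ratio was chosen after seeing the data. Positions come from GENCODE 29.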

Additional observations from a re-analysis of the deposited data

How the results depend on the processing

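HMOX1, ACO1 and TFRC kept their direction and their call under every alternative in which they were tested, and HMOX1 and ACO1 were not tested at a mean FPKM of at least 5. Their size did move. TFRC reached -0.45 with library totals and -0.48 with TPM scaling, and ACO1 was at 0.75 with library totals. Limma on log2(FPKM + 1) gave 1.16 for HMOX1, 0.57 for ACO1 and 0.70 for STEAP4. In that fit the FPKM are scaled by library totals, and the pseudocount also shrinks low genes. STEAP4, taken without a filter, kept its direction, ranged from 1.57 to 1.97 on the log2 scale with single libraries left out, and lost its call without either M5 library (1.82 and 1.69). Members that were not called became so as follows. With library totals, TPM scaling, and limma on log2(FPKM + 1) and log2(FPKM + 0.1), STEAP3 was at -0.28, -0.31, -0.26 and -0.28, SLC39A14 at -0.17, -0.20, -0.17 and -0.17, and IREB2 at -0.23, -0.26, -0.22 and -0.23. In these 4 fits, none of which uses TMM, 4 members were called lower, against 1 in the fit reported. At a mean FPKM of at least 5, STEAP3 was called at -0.16, with 0 members called higher and 2 lower. SLC39A14 turned to 0.0042 without a filter. FTH1 turned to -0.0195 with TPM scaling and to -0.0007 in both limma fits, and FTL to -0.0283, -0.0589, -0.0285 and -0.0285 in the 4 fits, none of them called.

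With single libraries left out, the log2 value ranged from -0.19 to -0.0645 for STEAP3, from -0.0458 to 0.0011 for SLC39A14, from -0.0659 to 0.36 for FTH1, from 0.0761 to 0.17 for FTL and from -0.13 to -0.0305 for IREB2, and between 1 and 2 members were called lower. Over all genes, 4463 were lower with library totals, 2027 higher and 4739 lower with TPM scaling, and 2010 and 2005 higher in the limma fits, against 3114 higher and 2929 lower in the fit reported. Over the 8 lists, 11 rose and 28 fell with library totals, 10 and 32 with TPM scaling, and 10 rose in each limma fit, against 17 and 17. The mean ferritin ratio was 0.484 in M5 and 0.467 in PBS with transcript lengths, against 0.294 and 0.284 as deposited, and single libraries gave 0.241 to 0.347 in M5 and 0.269 to 0.300 in PBS.

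Same-numbered libraries of the 2 groups did not deviate together (correlation -0.0134 over genes), and the labels do not pair them. With the replicate block, TFRC was at -0.30, HMOX1 at 2.11, ACO1 at 0.91 and STEAP4 at 1.76, no member gained or lost its call, NCOA4 lost its own, and over all genes 3132 were higher and 2959 lower. Having 2 libraries a group limits the precision of every value, and HMOX1 and STEAP4 also rest on fewer than 100 counts in each PBS library.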
